A study of Mus musculus with 6 samples.

Results

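The 10 genes described here comprise 6 that encode membrane-bound semaphorins and 4 that encode plexins of the B, C and D types. The semaphorins are Sema5a, Sema5b, Sema6a, Sema6d, Sema4c and Sema4d, and the plexins are Plxnb1, Plxnb2, Plxnc1 and Plxnd1. All probe sets that the array annotation assigned to exactly 1 symbol equal to one of these names were taken, which gave 27 of the 45037 probe sets tested and 10 of the 18193 genes named by a single symbol. The group was chosen by gene family, and with the Lmx1b-null minus wild-type change of Sema5a in these same arrays already known. The values of that comparison are therefore given as a description. Each p-value below is from a test of that change within a probe set, and an adjusted p-value takes all probe sets fitted into account. No count of calls among the members is taken as support for anything.

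Messenger RNA was measured on Affymetrix arrays in the hindlimb buds of 129Sv mouse embryos at E11.5 (E, embryonic day). The 3 wild-type and 3 Lmx1b-null (Lmx1b -/-) pools each combined RNA from 6 hindlimb buds of 3 embryos, taken from the proximal 500 µm of the bud, and each pool had 1 array. The study asked which genes LMX1B, a LIM homeodomain transcription factor that gives dorsal identity to limb mesenchyme, controls in the hindlimb. The labels do not describe the construction of the Lmx1b allele. The labels name no sorting of cells, so mesenchyme, ectoderm, vessels, muscle precursors, nerve and blood can contribute to every value, and fewer cells of a type cannot be told apart from less RNA per cell.

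Semaphorins are guidance proteins that share an extracellular sema domain, and plexins are their main receptors. Ligand binding switches on the plexin's cytoplasmic domain, which acts on small GTPases inside the cell. The result is a change in adhesion and in the actin cytoskeleton that repels or attracts growing axons, endothelial sprouts and migrating cells. In the limb bud, motor and sensory axons and vessels grow through mesenchyme that expresses such cues. Class 4 semaphorins act mainly through B plexins, class 6 semaphorins through A plexins, SEMA7A through plexin C1, and the secreted SEMA3E through plexin D1. Class 5 semaphorins carry thrombospondin repeats besides the sema domain.

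The class 5 pair gave the largest changes among the members, in opposite directions, so the sequence just upstream of each RefSeq start is shown for this pair. The windows hold the 250 bases before the start in build GRCm38.p6, on the plus strand, and capitals mark CG dinucleotides. The Sema5a window is chr15:32244563-32244812 and the Sema5b window is chr16:35541112-35541361.
Sema5a: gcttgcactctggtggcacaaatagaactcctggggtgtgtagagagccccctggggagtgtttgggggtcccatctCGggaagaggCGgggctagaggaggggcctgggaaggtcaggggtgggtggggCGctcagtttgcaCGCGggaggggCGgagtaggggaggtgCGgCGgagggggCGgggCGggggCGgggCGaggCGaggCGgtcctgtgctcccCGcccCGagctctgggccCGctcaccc
Sema5b: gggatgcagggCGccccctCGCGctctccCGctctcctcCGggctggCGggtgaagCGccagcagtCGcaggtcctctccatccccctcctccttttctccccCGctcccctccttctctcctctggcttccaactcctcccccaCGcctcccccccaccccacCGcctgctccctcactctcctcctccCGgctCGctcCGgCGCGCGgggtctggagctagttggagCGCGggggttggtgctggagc
Both windows had a GC content of 72.0%, with 17 CG dinucleotides in Sema5a and 19 in Sema5b. The median over 32851 windows of this length was 52.4% GC and 6 CG dinucleotides, and 6.87% of windows reached 72% GC. TAATTA, a core that many homeodomain proteins bind and that reads the same on both strands, was in neither window, against 4.84% of those 32851. Its shorter part TAAT, searched on both strands, was also in neither, against 54.9% of the same 32851. RefSeq windows of 9 of the 10 genes were examined, 14 windows in all. Sema6a was left out of this count, so whether it has such a window is not described here. None of the 14 held TAATTA and 5 held TAAT, namely both Sema6d windows, 2 of the 3 Sema4d windows and the Plxnb1 window. The 32851 windows were not matched to these for GC content, and binding of LMX1B was not tested.

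Values are RMA values on the log2 scale, and each change is the mean of the Lmx1b-null pools minus that of the wild-type pools, with its standard error (SE) and 95% interval from a limma fit to all probe sets. Adjusted p-values are from that fit, by the Benjamini-Hochberg method over all 45037 probe sets, with a threshold of 0.05. Probes differ in brightness, so groups are compared within a probe set, and the level or rank of a probe set among all says only how bright its signal was. Over all arrays the lower quartile of values was 3.33 and the median 4.98, and values near the lower quartile carry little signal. Of the 27 member probe sets, 5 had a mean in the lowest 25% of all probe sets and 11 lay below the middle of that ranking. No probe set was filtered out for low values.

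The arrays correlated with one another at 0.993 to 0.997 over all probe sets. The targeted gene, Lmx1b, was lower in its brighter probe set, at 7.58 to 8.17 in wild-type and 4.23 to 4.62 in null pools, while its other probe set, at 3.80 to 4.03 in all 6, checks nothing. By mean level over the 6 pools, the probe sets of the hindlimb genes Tbx4 and Pitx1 lay at percentiles 97.4 and 97.1 of all probe sets and that of the forelimb gene Tbx5 at 39.8, which describes signal and is no measure of relative transcript amount. Of 6 spinal cord markers, 4 (Sox2, Olig2, Nkx2-2 and Foxa2) ranked in the lowest 25%. Xist, transcribed from the inactive X chromosome of female cells, read 4.68 and 4.72 in wild-type pools 1 and 3 but 9.88 in wild-type pool 2 and 9.16 to 10.79 in the null pools, so the sex mix differed between the groups. None of the 10 member genes lies on the X or Y chromosome.

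Among the 27 member probe sets, 1 passed the threshold, a lower level of Sema5a, against a background of 0.0844% of all probe sets, 0.0622% lower and 0.0222% higher. An unadjusted p under 0.05 was found for 4 members and for 9.41% of all probe sets. The null and wild-type pools did not overlap in 4 of the 27, or 14.8%, and in 14.4% of all probe sets. Of the 4, 2 were of Sema5a, with null pools below wild type (5.78% of all probe sets), and 1 each of Sema5b and Plxnb1, with null pools above (8.62%). The median change of the members was 0.03, beside 0.01 for all probe sets, and the median size of change regardless of sign was 0.11 beside 0.07. A higher null mean was found for 17 of the 27 member probe sets and for 24996 of all 45037.

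**Figure D1:**
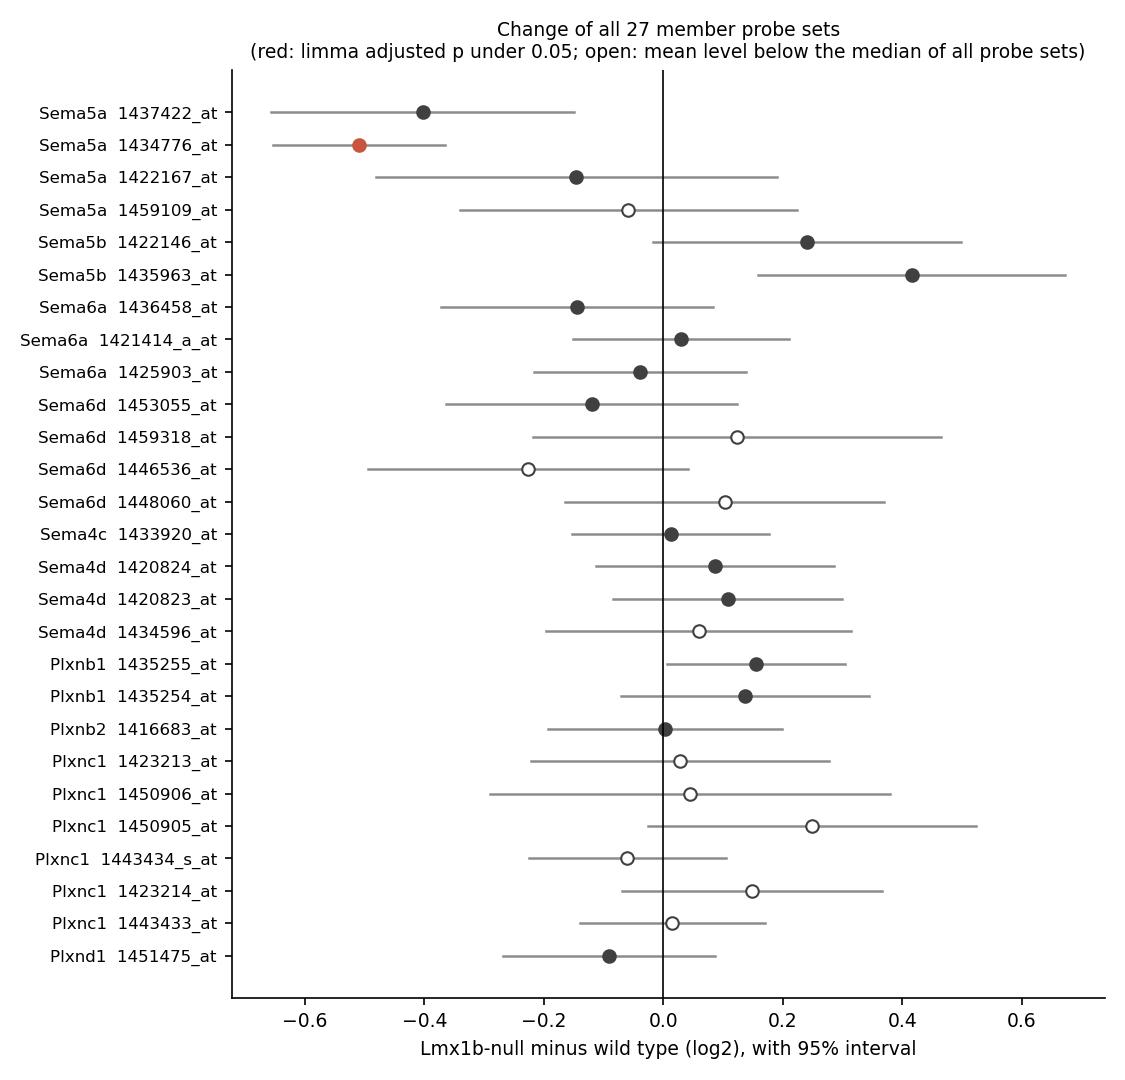
Change of the 27 member probe sets (Lmx1b-null minus wild type, log2; points) with the 95% interval of the limma fit (lines), by gene and probe set. The changes run from -0.51 in Sema5a to 0.42 in Sema5b, and the intervals of 23 probe sets span 0.

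SEMA5A, a transmembrane semaphorin known to repel or attract axons according to the proteoglycans around it, was measured by 4 probe sets. Probe set 1434776_at had wild-type values of 7.36, 7.41 and 7.33 and null values of 6.89, 6.83 and 6.85, each in the order of pools 1, 2 and 3. The groups did not overlap, and the gap between them, 0.44, was several times the spread within either. The wild-type mean was 7.37 ± 0.04 and the null mean 6.86 ± 0.03 (SD, n = 3). The change was -0.51 (SE 0.06; 95% interval -0.65 to -0.37), or 1.42-fold. In the limma fit over all probe sets its adjusted p was 0.0435. It ranked 37 of 45037 by p.

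The call lay close to the threshold. With any 1 of the 6 pools left out, the adjusted p was between 0.0828, with wild-type pool 1 omitted, and 0.213, with null pool 1 omitted, while the change stayed between -0.53 and -0.49. With Xist as a covariate the change was -0.55 (limma adjusted p = 0.273), and it was -0.55 between wild-type pool 2 alone, the one wild-type pool with Xist as high as the null pools, and the 3 null pools (0.314).

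The brightest Sema5a probe set, 1437422_at, read 9.02, 9.25 and 8.91 in wild-type pools and 8.64, 8.52 and 8.82 in null pools. All 3 null values lay below all 3 wild-type values, by a gap of 0.095 that was smaller than the spread within each group. Its means of 9.06 ± 0.17 and 8.66 ± 0.15 (SD, n = 3) gave a change of -0.40 (SE 0.11; 95% interval -0.66 to -0.15; limma adjusted p = 0.333). With Xist as a covariate it was -0.62 (limma adjusted p = 0.339), and against wild-type pool 2 alone -0.59 (0.515). The remaining pair, 1422167_at and 1459109_at, had changes of -0.15 and -0.06 with overlapping groups. In 1422167_at, wild-type pool 1 read 5.56 and the other 5 pools 4.95 to 5.12, and 1459109_at, at 2.64 to 3.12 in all pools, was near the bottom of the range. All 4 Sema5a probe sets had a lower null mean, which in 1422167_at rested on wild-type pool 1. Which part of the transcript each probe set reads was not known here.

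SEMA5B, the paralogue, is known for restraining neurite growth in the retina together with SEMA5A. Its probe set 1435963_at read 4.63, 5.01 and 5.01 in wild-type and 5.23, 5.36 and 5.31 in null pools. The groups did not overlap, and wild-type pool 1 was the lowest of all. The wild-type mean was 4.88 ± 0.22 and the null mean 5.30 ± 0.07 (SD, n = 3). The change was 0.42 (SE 0.11; 95% interval 0.16 to 0.67; limma adjusted p = 0.323). Without wild-type pool 1 the change was 0.29, and against wild-type pool 2 alone it was also 0.29. The fit with Xist as a covariate gave 0.30 (limma adjusted p = 0.858).

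The brighter Sema5b probe set, 1422146_at, read 5.33, 5.68 and 5.60 in wild-type and 5.94, 5.71 and 5.68 in null pools. The lowest null value and the highest wild-type value met at 5.68, so the groups just overlapped. The change was 0.24 (SE 0.11; 95% interval -0.02 to 0.50; limma adjusted p = 0.554), and it was 0.14 with wild-type pool 1 omitted and 0.16 with null pool 1 omitted. It was 0.11 with Xist as a covariate and 0.091 against wild-type pool 2 alone (limma adjusted p = 0.969 and 0.94). Neither Sema5b probe set passed the threshold, so a difference from wild type was not detected at 3 pools a side.

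**Figure D2:**
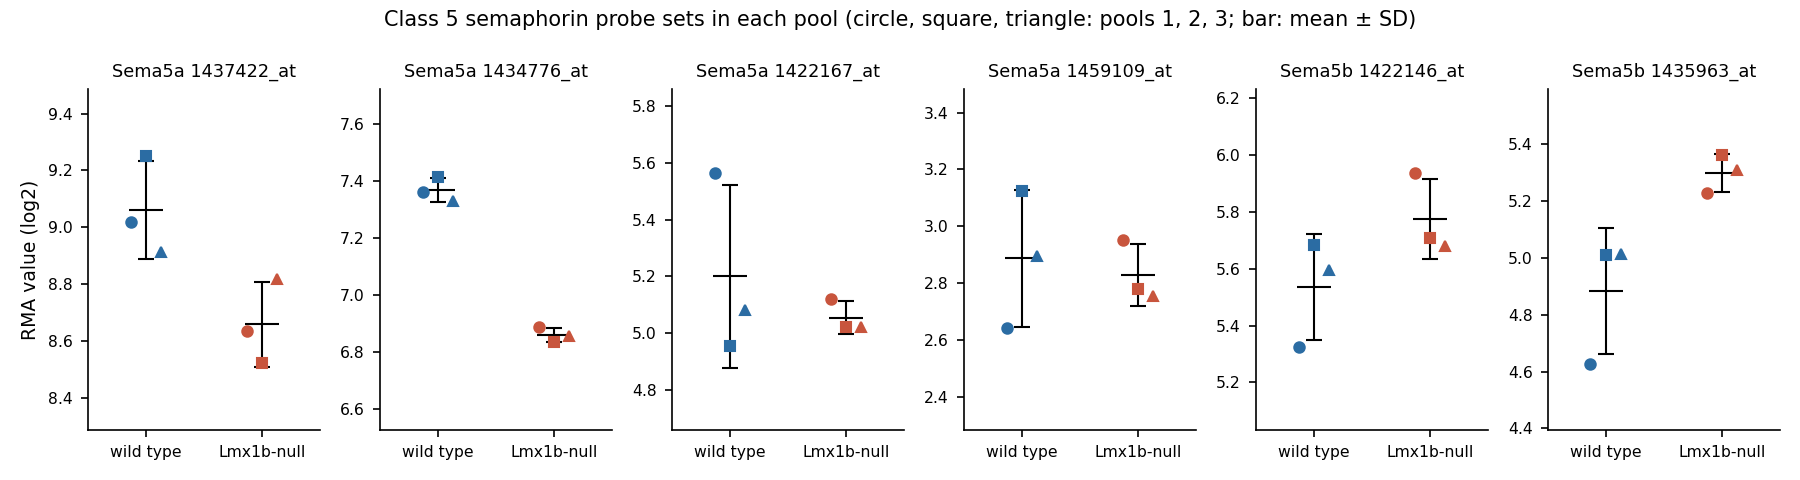
RMA values (log2) of the 4 Sema5a and 2 Sema5b probe sets in each of 3 wild-type (blue) and 3 Lmx1b-null (red) pools, with the mean and SD as bars; all panels have the same height in log2 units. In Sema5a 1434776_at the null pools lie at 6.83 to 6.89 and the wild-type pools at 7.33 to 7.41, and in Sema5b 1435963_at the null pools lie above.

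Wild-type pool 1 also stood low in several lists of cell type markers. The mean log2 level of the 10 muscle precursor markers was 5.91 in that pool and 6.26 to 6.59 in the other 5. For the 7 measured Schwann cell and neural crest markers it was 5.06 against 5.27 to 5.50, and for the 12 surface ectoderm markers 6.36 against 6.56 to 6.69. Higher null means were seen for 9 of 10 muscle precursor, 6 of 7 Schwann cell and neural crest and 11 of 12 ectoderm markers, and none of these markers passed the threshold. The part of these cells in the Sema5b values was not tested.

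Class 6 semaphorins are transmembrane ligands of A plexins. SEMA6A is known for guiding axons and for holding boundary cap cells at the motor exit points of the spinal cord, and SEMA6D for its part in heart development. The brightest Sema6a probe set read 6.68, 7.04 and 6.97 in wild-type and 6.81, 6.73 and 6.72 in null pools. The null pools lay inside the wild-type range, and the change was -0.15 (SE 0.10; 95% interval -0.37 to 0.08; limma adjusted p = 0.681). The other two Sema6a probe sets had changes of 0.03 and -0.04. Wild-type pool 1 had the lowest value of all 6, and without it the change of the brightest probe set was -0.25 (limma adjusted p = 0.432), against -0.076 without wild-type pool 2 (0.909). It was -0.27 with Xist as a covariate and -0.28 against wild-type pool 2 alone (limma adjusted p = 0.844 and 0.657).

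Sema6d had 1 probe set above the middle of the range, 1453055_at. It read 7.35, 7.41 and 7.75 in wild-type and 7.37, 7.36 and 7.41 in null pools. Only wild-type pool 3 stood out, and the change of -0.12 (SE 0.11; 95% interval -0.36 to 0.12; limma adjusted p = 0.76) was 0.00 without it and -0.20 without wild-type pool 1. It was -0.047 with Xist as a covariate and -0.032 against wild-type pool 2 alone. The 3 dimmer Sema6d probe sets, with group means between 3.54 and 4.37, had changes of -0.23 to 0.12 and all overlapped.

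Class 4 semaphorins signal mainly to B plexins. SEMA4C is a ligand of plexin B2, and SEMA4D, a ligand of plexin B1, is also known from T cells. The single Sema4c probe set read 8.12, 8.01 and 8.16 in wild-type and 8.18, 8.09 and 8.06 in null pools. The group means were 8.10 ± 0.08 and 8.11 ± 0.06 (SD, n = 3), and the interval of the change of 0.01 ran from -0.15 to 0.18 (limma adjusted p = 0.974). With each array centred on its median that change was slightly below 0, and it was 0.10 with Xist as a covariate and 0.099 against wild-type pool 2 alone.

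The brightest Sema4d probe set read 6.68, 6.80 and 6.75 in wild-type and 6.97, 6.84 and 6.68 in null pools. The groups overlapped, with a change of 0.09 (SE 0.09; 95% interval -0.11 to 0.29; limma adjusted p = 0.792). Single pools moved that value, to 0.017 without null pool 1, 0.16 without null pool 3 and 0.057 without wild-type pool 1, and it was 0.032 against wild-type pool 2 alone. The other two Sema4d probe sets had changes of 0.11 and 0.06. All 3 had a higher null mean, by less than the larger of the group SDs. Sema4d and Plxnc1 are also known from blood cells. Of the 12 macrophage and leukocyte markers, 6 ranked below the middle of all probe sets and 8 had a higher null mean, with a median change of 0.05 and none called. Their summed linear level was 362 to 422 in wild-type and 390 to 415 in null pools, and Aif1 ranked in the lowest 25% of all probe sets. The part of these cells in the Sema4d and Plxnc1 values was not tested.

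**Figure D3:**
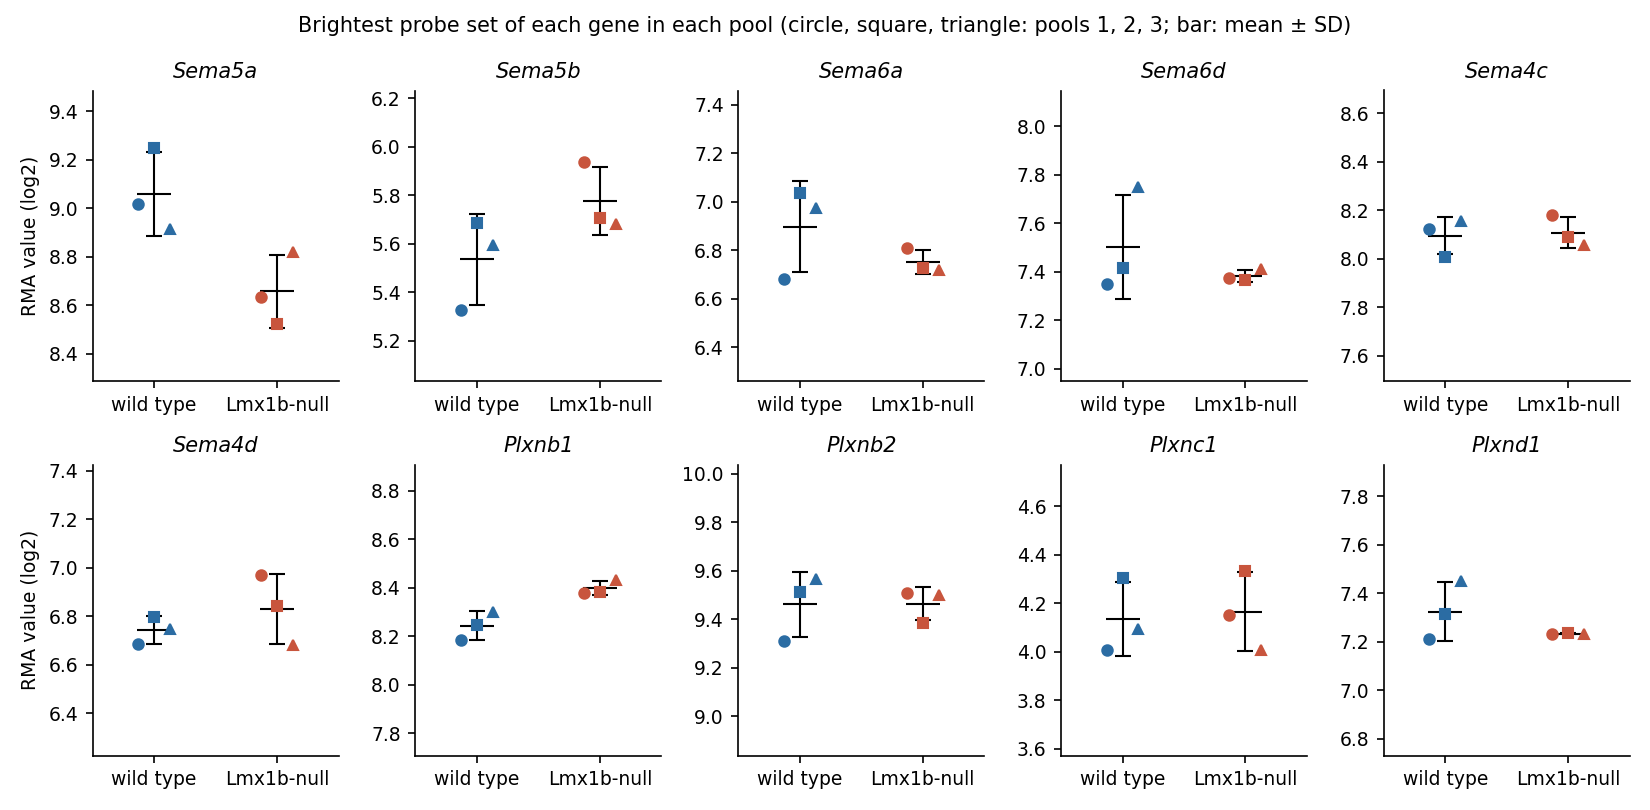
RMA values (log2) of the brightest probe set of each of the 10 genes in the 3 wild-type (blue) and 3 Lmx1b-null (red) pools, with mean and SD as bars; all panels have the same height in log2 units. The groups are apart in Sema5a, with null pools lower, and in Plxnb1, with null pools higher, and overlap in the other 8.

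The B plexins can associate with the receptor tyrosine kinases MET and ERBB2. Plxnb1 had 2 probe sets, both bright. Probe set 1435255_at read 8.18, 8.25 and 8.30 in wild-type and 8.38, 8.38 and 8.43 in null pools. Every null pool was above every wild-type pool, by a gap of 0.078. The means of 8.24 ± 0.06 and 8.40 ± 0.03 (SD, n = 3) gave a change of 0.15 (SE 0.06; 95% interval 0.01 to 0.30), or 1.11-fold, which did not pass (limma adjusted p = 0.52).

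The other Plxnb1 probe set had a change of 0.14 (SE 0.09; limma adjusted p = 0.672), with null pool 3 at 7.89 inside the wild-type range. Both Plxnb1 probe sets thus gave a similar size of change. Plxnb2, the B plexin known from migrating neural and epithelial cells, read 9.31, 9.51 and 9.56 in wild-type and 9.51, 9.39 and 9.50 in null pools. Its means were both 9.46, and the 95% interval of the change was -0.19 to 0.20 (limma adjusted p = 0.993). With each array centred on its median that change, too, was slightly below 0.

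Plexin C1 is the receptor of SEMA7A, a semaphorin held in the membrane by a lipid anchor. All 6 Plxnc1 probe sets lay below the middle of the range, and 4 of them ranked in the lowest 25% of all probe sets. The brightest read 4.01, 4.30 and 4.09 in wild-type and 4.15, 4.33 and 4.01 in null pools, and the change was 0.03 (SE 0.11; limma adjusted p = 0.956). The others had changes of -0.06 to 0.25, and the groups overlapped in all 6. At such a dim signal a change in Plxnc1 could be missed.

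Plexin D1 is the receptor through which SEMA3E restrains vessel growth, and it is known as an endothelial gene in the embryo. Its single probe set read 7.21, 7.31 and 7.45 in wild-type and 7.23, 7.24 and 7.23 in null pools. The null pools were almost identical and lay inside the wild-type range. The change was -0.09 (SE 0.08; 95% interval -0.27 to 0.09; limma adjusted p = 0.747). It was -0.028 without wild-type pool 3 and -0.15 without wild-type pool 1.

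Wild-type pool 3, the highest pool for Plxnd1, was also the highest for the 16 endothelial markers, with a mean log2 level of 7.01 against 6.80 to 6.87 in the other wild-type and 6.68 to 6.75 in the null pools. All 16 endothelial markers had a lower null mean, and none passed the threshold. Their changes ran from -0.65 for Tek (limma adjusted p = 0.089) to -0.0049 for Eng, with a median of -0.16. Their summed linear level was 1996 to 2283 in wild-type and 1857 to 1940 in null pools, and no endothelial marker ranked in the lowest 25%. The part of endothelial cells in the Plxnd1 value was not tested. Sema3e, the ligand gene, had 4 probe sets with group means between 2.51 and 3.71, near or below the lower quartile, and changes of -0.06 to 0.06.

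**Figure D4:**
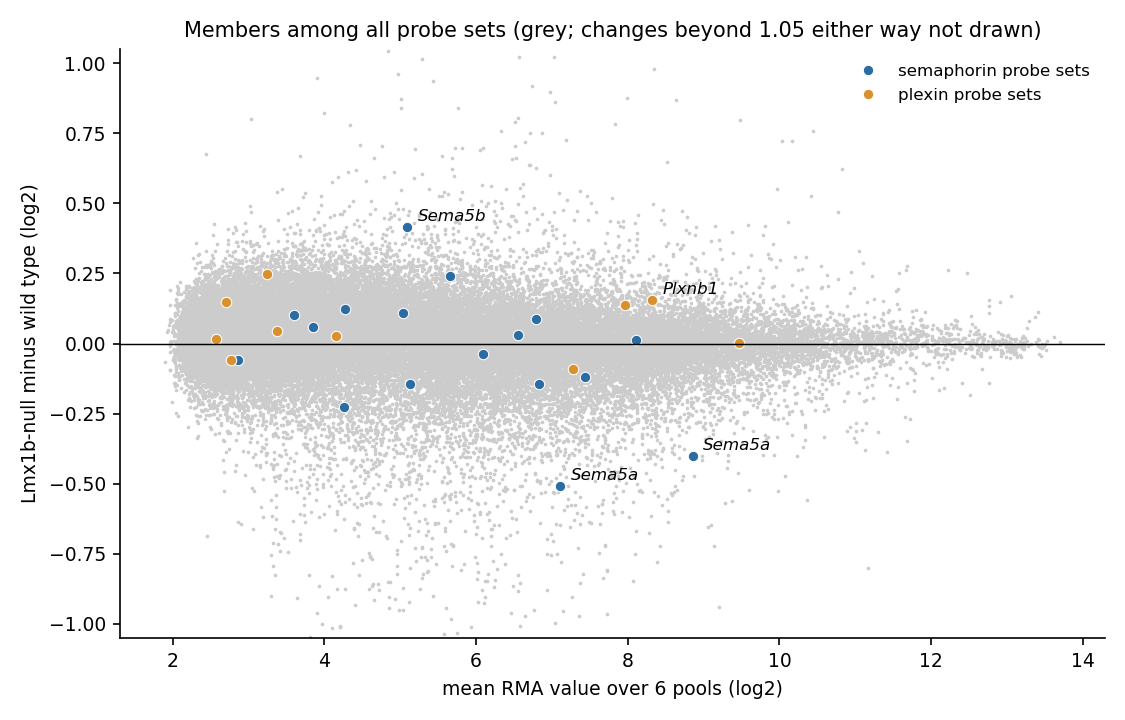
Change (Lmx1b-null minus wild type, log2) against mean RMA value over 6 pools (log2), with the 17 semaphorin probe sets in blue and the 10 plexin probe sets in orange. All tested probe sets are in grey, except those with changes beyond the range of the vertical axis, which are not drawn. Named points are the 4 members with an unadjusted p under 0.05; most of the other members lie within the grey band.

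The wider pathway was read from a list of 69 further genes, 65 of which had at least 1 probe set with a single symbol, 155 in all. Of the 155, 1 fell past the threshold (the same background of 0.0844%), a probe set of Nrp2, and none rose. An unadjusted p under 0.05 was found for 14, or 9.03%, and the median change was 0.00. Nrp2 encodes neuropilin 2, a co-receptor of class 3 semaphorins that pairs with A plexins. Its 4 probe sets had changes of -0.87, -0.85, -0.72 and -0.68, of which the dimmest, 1447343_at, passed (limma adjusted p = 0.024). Leaving out any 1 of the 6 pools ended that call, with limma adjusted p from 0.0504 to 0.109 and changes from -0.92 to -0.78. Without wild-type pool 1, 2 of the other Nrp2 probe sets passed instead, and without any 1 of the other 5 pools no pathway probe set did. With the Xist level as a covariate its change was -0.90 (limma adjusted p = 0.224). The co-receptor genes Met, Erbb2 and Ptk7 had changes of -0.03 to -0.01, -0.11 and -0.01.

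Among the other membrane semaphorins, 9 of 13 probe sets had a higher null mean and none passed. Sema4f had the smallest p, with values of 4.88, 5.15 and 5.25 in wild-type and 5.58, 5.43 and 5.36 in null pools (change 0.36, SE 0.11; limma adjusted p = 0.38). The groups did not overlap there, but they did in its other probe set, which stood at 0.25. Sema6c, at 0.16, and Sema7a, the plexin C1 ligand gene, at 0.09, came next and did not pass.

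The 41 probe sets of cytoskeletal effectors and adaptors had a median change of 0.01 and a range of -0.75 to 0.23. The 22 of downstream kinases had a median of 0.05 and a range of -0.22 to 0.18. None of either list passed. The genes with the smallest p by their brightest probe set were Limk1 (0.20), the kinase of cofilin, Crmp1 (-0.14) and Rock1 (-0.53) in the first list, and Fyn (0.08), Src (0.14) and Cdk5 (0.05) among kinases. Among receptors, Kdr (-0.22) and Mst1r (0.18) followed Nrp2. Their limma adjusted p ran from 0.517 to 0.842. Rock1 spread widely within the wild type, at 9.16, 8.34 and 7.75, and its null pools of 7.55, 7.91 and 8.22 lay within or just under that range.

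**Figure D5:**
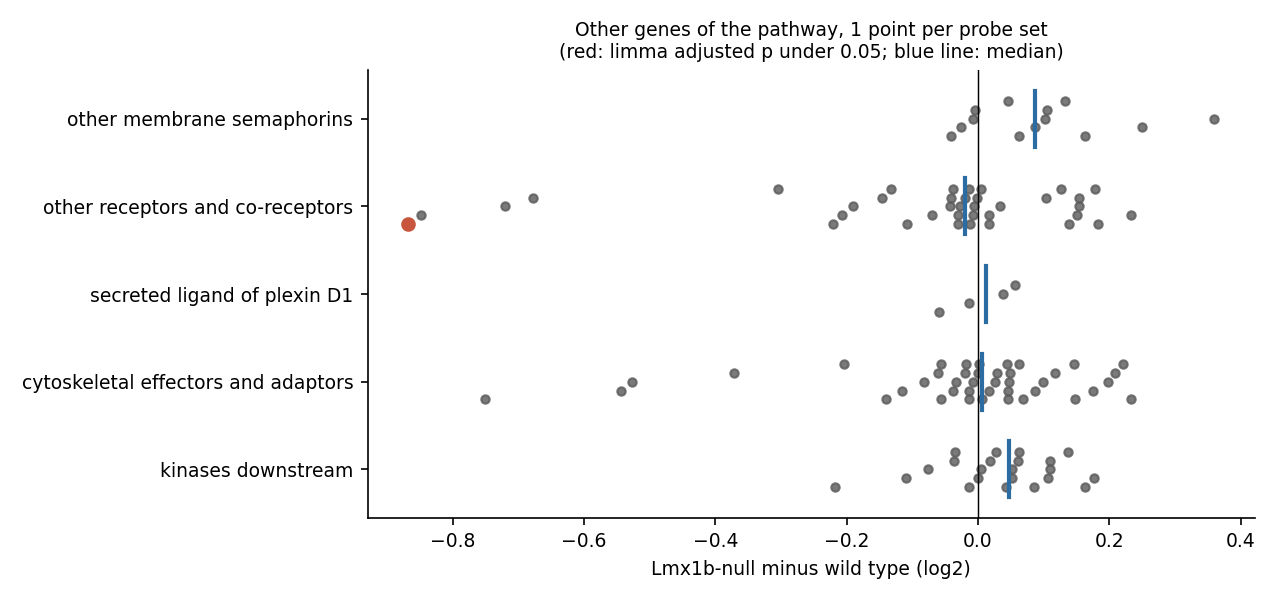
Change (Lmx1b-null minus wild type, log2) of 117 probe sets of other genes of the pathway, in 5 lists, with the median of each list as a blue line and the 1 probe set past the limma threshold in red. The 4 points between -0.87 and -0.68 among receptors and co-receptors are all of Nrp2.

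Likeness to Sema5a was measured as the root mean square difference between mean-centred log2 values over the 6 pools, with 1434776_at set against 34941 probe sets of other named genes. The 5 nearest were Aass (0.056), Sorbs2 (0.057), Grem1 (0.060), Id2 (0.062) and Sema3d (0.068). Each was lower in all 3 null pools than in any wild-type pool. The changes of Aass, which encodes an enzyme of lysine breakdown, and Sorbs2, an actin-linked adaptor gene, were -0.48 and -0.52. That of Grem1, a BMP antagonist gene, was -0.61, that of 1 of the Id2 probe sets -0.42, and that of Sema3d, a secreted class 3 semaphorin gene, -0.58. Grem1 and Sema3d passed the threshold (limma adjusted p = 0.0238 and 0.0382). Aass, Sorbs2 and Id2 did not (0.0891, 0.0750 and 0.113). Sema3d was not in the pathway list. With 6 pools in 2 groups, any gene with a change of this size and a small spread comes out as like Sema5a, so the order is a description of these pools.

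Markers of the remaining cell types were compared in the same pools. Of 12 neuron and motor axon markers, 9 had a higher and 3 a lower null mean, and their summed linear level was 979 to 1071 in wild-type and 785 to 817 in null pools. Their mean log2 level overlapped, at 5.10 to 5.32 in wild-type and 5.12 to 5.17 in null pools. The largest changes were those of Dcx (-1.87) and Gap43 (-0.57), lower in all null pools, and Nefl (0.96), higher in all null pools, named after their values were seen. The 11 limb mesenchyme and hindlimb markers had a mean log2 level of 9.38 to 9.53 in wild-type and 9.35 to 9.44 in null pools, with 7 lower and 4 higher null means. The 7 measured erythroid markers stood at 8.18 to 8.23 and 8.14 to 8.34. No marker in these lists passed the threshold, and their part in the Sema5a value was not tested.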

How the data were processed

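The deposited file holds 1 log2 value for each probe set on each array. The authors made the values with RMA, per the submitters' processing notes, and no version is given in the sources used here. RMA subtracts background, brings arrays to a common scale and combines the probes of each set. The base of the logarithm is not stated and was taken as 2 from the range of the values. Because RMA equalises the distributions of arrays, it would hide a general shift of transcripts in 1 group, and it compresses changes of dim probe sets.

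Of 45101 probe sets, 64 controls were left out. Symbols were taken from the platform's annotation table, which gave 34945 tested probe sets 1 symbol, 932 several and 9160 none. All 10 member genes were matched by identifier to RefSeq (GRCm38.p6), with 0 symbols changed. Groups were compared over all 45037 probe sets with limma 3.58.1 (lmFit and eBayes, no trend, not robust, two-sided) in R 4.3.3, with Benjamini-Hochberg adjustment and a threshold of 0.05. Figures used matplotlib 3.10.9. The fit was tested on simulated data, with recovery required only for changes larger than any seen in the members. The labels name separate pools of embryos, which were taken as biological replicates, and their number limits the precision. An exact permutation test of 3 pools against 3 cannot go below 0.1.

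The members, the pathway and marker lists and the rule for named genes were chosen with earlier results of these data known. The rule took every member by its brightest probe set (highest mean over the 6 arrays) and Lmx1b. It also took pathway genes past the threshold, up to 3 genes per pathway list with the smallest p, and the 5 probe sets most like the member with the smallest p. The genes of 1 pathway list entered the pathway counts and are not reported by name here. Marker lists used the brightest probe set of each gene. The alternatives covered the variance model, array weights, scaling, filters, threshold, pool number as a block, Xist level and leaving out pools.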

Additional observations from a re-analysis of the deposited data

How the results depend on the processing

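The single member call, Sema5a 1434776_at, was kept with an intensity trend, the robust option, array weights, median centring, bright probe sets only, without probe sets ending in _x_at or _s_at, and at an adjusted p under 0.1. It became 0 with a second quantile normalization (limma adjusted p = 0.0616), 1 probe set per gene (which uses another Sema5a probe set), Xist as a covariate, wild-type pool 2 alone (chosen after seeing the data) and with any 1 pool left out (0 to 0). Its change ran from -0.55 to -0.48 over all settings. With the pool number as a replicate block, 0 members, 0 pathway probe sets and 14 of all probe sets were called (Sema5a 1434776_at at -0.51, limma adjusted p = 0.181). Deviations of pools with the same number correlated at -0.239, -0.088 and -0.168. The labels give only the number, and these values cannot show whether such pools shared a preparation.

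Against 1 pathway call, 4 were made with an intensity trend, 3 with array weights, 3 at an adjusted p under 0.1, 0 with 1 probe set per gene, Xist or wild-type pool 2 alone, and 0 to 2 with 1 pool left out. Against 38 of all probe sets, these settings gave 94, 69, 99, 19, 9 and 10, bright probe sets only gave 20, and leaving out 1 pool gave 13 to 38.

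Among the brightest probe sets of the members, none of which was called in any setting, 4 turned sign. Sema4c was at -0.0041 when centred and -0.031 to 0.043 with 1 pool left out. Plxnb2 was at -0.014 with array weights, -0.013 when centred, -0.057 with Xist, -0.046 against wild-type pool 2 alone and -0.073 to 0.055 with 1 pool left out. Plxnc1 was at -0.017 with array weights, -0.081 with Xist, -0.14 against wild-type pool 2 alone and -0.056 to 0.11 with 1 pool left out. Sema6d ran from -0.20 to 0.0021 with 1 pool left out. The cause of these differences was not tested.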
